A study of Mus musculus with 20 samples.

Results

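The Hox genes encode homeodomain transcription factors and were examined here as 1 family of 39 members among the 25869 genes in the expression table. Members were the genes whose mouse symbol is Hoxa, Hoxb, Hoxc or Hoxd followed by a number only, so that antisense and long noncoding transcripts of the same loci were left out. Expression had been measured by RNA-seq in 20 libraries from a study of a CRISPR activation mouse, in which a catalytically dead Cas9 fused to VP64, with the MS2-p65-HSF1 activator, is expressed from the Rosa26 locus under the CAG promoter (dCas9a-SAM). The libraries came from mouse embryonic fibroblast (MEF) lines, from Eµ-Myc lymphomas and from preB cell leukaemias (preB-ALL).

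The MEF lines had been made from E14 embryos and comprised 4 groups. WT MEFs (2 libraries) carried no transgene. The dCas9a-SAM KI/+ MEFs were studied without an sgRNA (2 libraries), with a non-targeting sgRNA (sgNT, 2 libraries) or with an sgRNA to the Bcl-2 promoter (sgBcl-2, 4 libraries). The labels number 2 lines of dCas9a-SAM KI/+ MEFs, and each was sequenced once without an sgRNA, once with sgNT and in 2 libraries with sgBcl-2. Libraries of 1 line share their source cells, so p-values between MEF groups measure the spread between these libraries and not between embryos. The 6 lymphoma cell lines (14_179_IgMp, 15_180_IgMp, 16_202_IgMp and 17_213_IgMp, surface IgM-positive, and 18_214_IgMn and 19_216_IgMn, IgM-negative, each named in the labels by library, mouse and IgM status) carried Eµ-Myc, dCas9a-SAM KI/+ and sgBcl-2, as did 2 IgM-positive primary tumours, libraries 20 and 21. They arose in irradiated mice that had received transduced foetal liver haematopoietic stem and progenitor cells. The Eµ-Myc transgene drives Myc in the B lineage. The 2 preB-ALL libraries carried BCR-ABL1 (p190T/+) and are named CreER-LSL-Erg and Rag-Cre-Erg in the labels. Their RNA was prepared with another kit and sequenced in another run, so that the group and the preparation cannot be told apart.

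In mammals the Hox genes lie in 4 clusters, A to D, and the number of a gene gives its paralogue group, its place along the cluster. Genes with low numbers are expressed from the hindbrain backwards, and genes with high numbers only in the hindmost trunk, the genitalia and the distal limbs, a rule known as collinearity. Fibroblasts keep much of the Hox pattern of the body region that they came from when they are grown in culture. In blood, Hoxa and Hoxb genes are active in stem cells and early progenitors and fall as cells mature, and Hoxa9 is a well known driver of acute leukaemia. Hox proteins bind DNA with the TALE cofactors of the Pbx, Meis and Pknox families.

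The deposited values were CPM (read counts scaled to 1000000 per library), and in 100% of them a whole number of reads could be recovered. Recovered totals were 12474885 to 26678417 reads per library with a median of 23229458, and the preB-ALL libraries were the shallowest. Cluster A held 11 of the genes at chr6:52155367-52260880 (GRCm38), cluster B held 10 at chr11:96194316-96368254, cluster C held 9 at chr15:102921131-103036856 and cluster D held 9 at chr2:74668225-74765142. Exons of 12 of the 39 genes overlap those of another annotated gene, mostly an antisense or noncoding transcript, and the library kit does not keep the strand. For Hoxd3, 79.3% of the exon bases are shared, for Hoxb3 63.9% and for Hoxb2 58.5%, so reads of these genes may belong to their partners. Bcl2, the gene targeted by sgBcl-2, was at 11.2 to 17.9 CPM in the 6 MEF libraries without that sgRNA and at 46.8 to 71.8 CPM in the 4 with it.

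Several libraries stood apart or went against their labels. The 2 libraries labelled as WT MEFs differed by a mean chi-square per gene of 326, against 7.32 to 26.8 for other pairs of MEF libraries of 1 group. WT MEF 2 held the lower sum of 12 fibroblast markers, 7550 CPM against 16455 CPM in WT MEF 1. It also held the higher sum of 5 macrophage markers, 206 CPM against 6.42 CPM, and of 4 skeletal muscle markers, 143 CPM against 12.6 CPM. Xist was at 436 to 566 CPM in the sgNT and sgBcl-2 libraries of MEF line 2 and Ddx3y at 0.0429 to 0.124 CPM there, whereas the library labelled as line 2 without an sgRNA had Xist at 0.258 CPM and Ddx3y at 110 CPM. That library therefore went against the line number in its label. For the primary tumours, the titles and the descriptions give the numbers of the 2 mice the opposite way round (20_180_Tumour_IgMp and 20_179_Tumour_IgMp for the same library), and they are named by library number here.

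Hox genes were expressed broadly in every MEF library and sparsely in every lymphoid one. The MEF libraries held 9958 to 16238 reads of Hox genes each, the lymphoma lines 25 to 1274, the primary tumours 86 each and the preB-ALL 447 and 514. At a mean of at least 1 CPM, 34 Hox genes were detected in WT MEFs, 34 in MEFs without an sgRNA, 32 with sgNT and 32 with sgBcl-2. The same minimum left 7 genes in the lymphoma lines (Hoxb3, Hoxb4, Hoxb5, Hoxb6, Hoxb9, Hoxb13 and Hoxc4), 2 in the primary tumours (Hoxb4 and Hoxb13) and 11 in preB-ALL, among them Hoxa2 to Hoxa5, Hoxa10 and Hoxb3 to Hoxb7. No read of 11 Hox genes was counted in any of the 6 lymphoma lines, of 21 in either tumour and of 15 in either preB-ALL library. In these bulk samples, fewer cells that express a gene and less RNA of it per cell cannot be told apart.

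**Figure D1:**
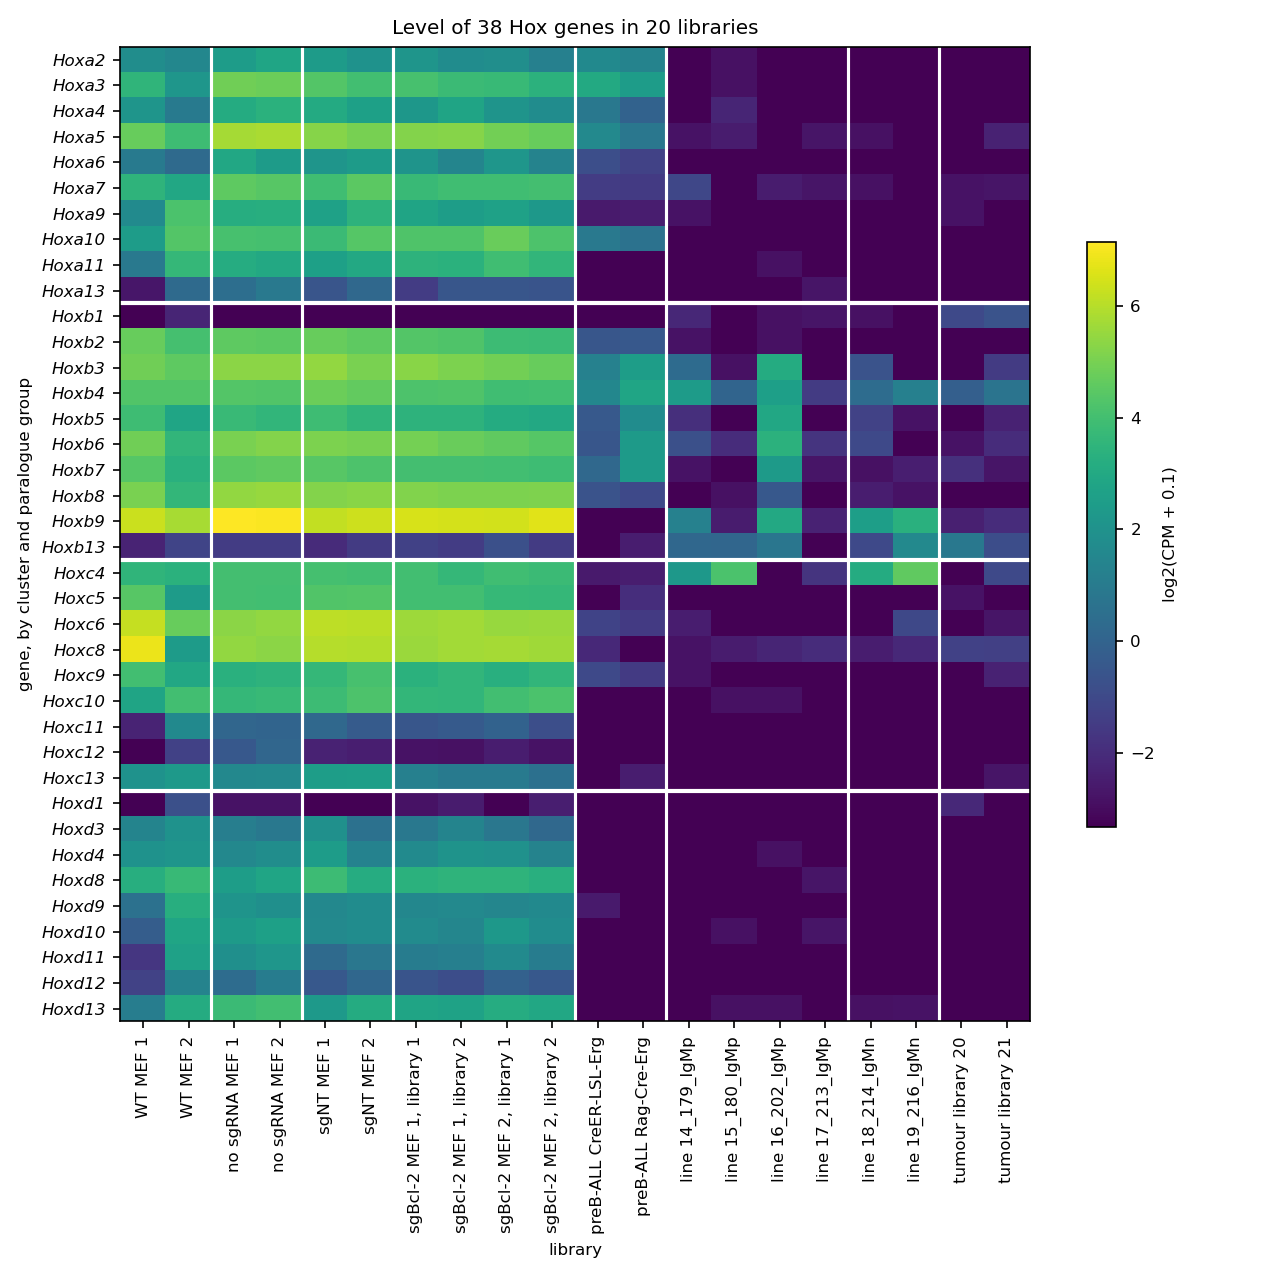
Heat map of the level of 38 Hox genes, log2(CPM + 0.1), by cluster and paralogue group (vertical axis) in the 20 libraries (horizontal axis). Over the whole family, the 10 MEF libraries have 30 to 35 genes at 1 CPM or more each, and no lymphoid library has more than 9.

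Per kilobase of exon, which allows genes to be compared with each other, the leading Hox genes of the MEFs came from the middle of the clusters and from group 9. Over the 10 MEF libraries Hoxb9 had the highest level, 36.3 ± 10.5 CPM per kb (SD, n = 10), followed by Hoxc6 at 32.4 ± 9.31, Hoxc8 at 28.3 ± 14.4 and Hoxa5 at 18.7 ± 6.67. The first 3 did not differ beyond their spread, and neither did Hoxb6, Hoxb7, Hoxb8 and Hoxb2, which came next at 14.1 to 12.6 CPM per kb. At the other end, Hoxb1, a hindbrain gene, was read only in WT MEF 2 among the MEFs, at 0.114 CPM, and Hoxd1 reached at most 0.494 CPM. Cluster B supplied 41.6 ± 2.57% of the summed Hox level per kb in the 10 MEF libraries, cluster C 31.4 ± 7.07%, cluster A 20.9 ± 3.69% and cluster D 6.18 ± 3.38%.

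The balance along the clusters was described by the share of the summed CPM per kb held by anterior genes (groups 1 to 3), central genes (4 to 8) and posterior genes (9 to 13). The posterior share was 16.8% in WT MEF 1 and 42.6% in WT MEF 2. It was 29.6% in both libraries without an sgRNA, 19.7% and 24.8% with sgNT, and 25.8% to 31.3% in the 4 libraries with sgBcl-2. The 2 WT libraries thus held the lowest and the highest posterior share of all 10, and the other 8 lay between them. Hoxb9 makes up much of the posterior share. Counted over groups 10 to 13 alone, the mean share was 12.8% in WT, 9.98% without an sgRNA, 8.85% with sgNT and 11.1% with sgBcl-2.

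**Figure D2:**
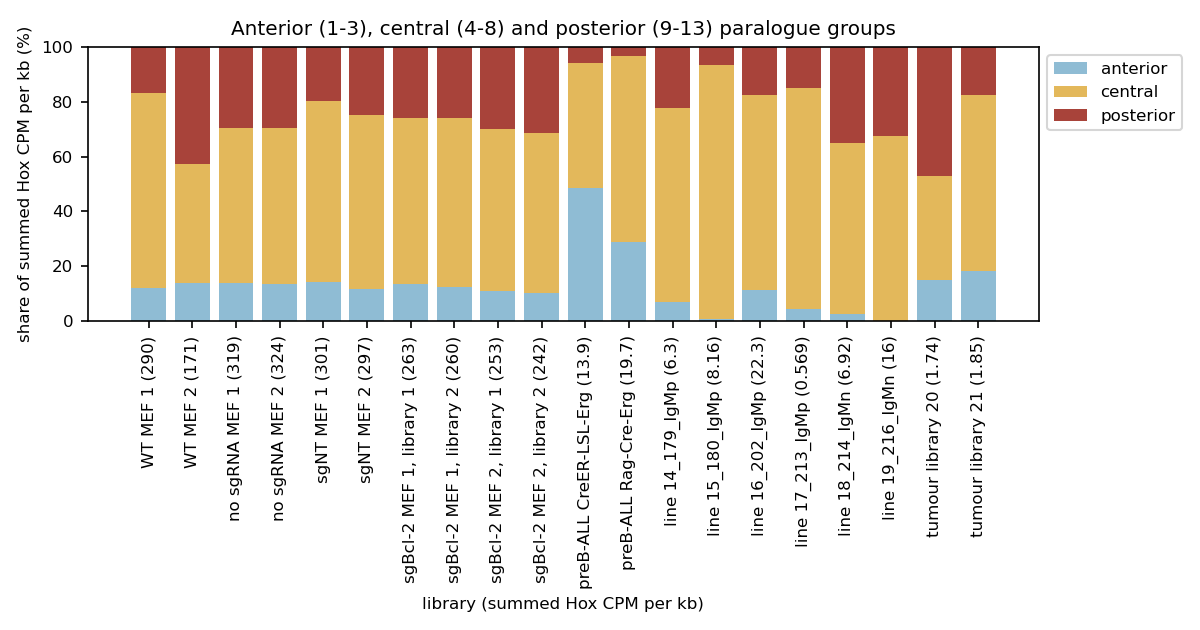
Stacked bars of the share (%) of the summed Hox CPM per kb held by anterior (groups 1 to 3), central (4 to 8) and posterior (9 to 13) genes in each library, with the summed level in brackets. WT MEF 1 (16.8%) and WT MEF 2 (42.6%) hold the lowest and highest posterior shares of the MEFs, and the preB-ALL bars have the smallest posterior part (5.73% and 3.31%).

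The 2 WT lines, which are single libraries and allow no test, differed from each other along the clusters. Most central genes were lower and most posterior genes higher in WT MEF 2. Of the 33 Hox genes with a mean of at least 1 CPM over the MEFs, 13 of 15 central genes were lower in WT MEF 2, with a median difference of -1.07 on the log2(CPM + 0.1) scale. By contrast 10 of 12 posterior genes were higher there, with a median of 2.26. Of the 6 anterior genes 5 were lower, with a median of -0.34. A difference of 2-fold or more was seen for 19 of the 33 genes (57.6%), against 4021 of 13392 genes of the table (30.0%).

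Hoxc8, a gene of the thoracic trunk, was at 114 CPM in WT MEF 1 and 5.24 CPM in WT MEF 2, while the other 8 MEF libraries lay between 39.4 and 63.0 CPM. WT MEF 1 was thus above and WT MEF 2 below every dCas9a-SAM KI/+ library. Its neighbours Hoxc6 (74.5 and 26.2 CPM) and Hoxc5 (21.3 and 5.21 CPM) were placed the same way. The Abd-B-type genes of cluster A, which are known from limb and urogenital patterning, went the other way. Hoxa9 was at 3.08 CPM in WT MEF 1 and 18.0 CPM in WT MEF 2, Hoxa11 at 1.80 and 12.4 CPM, and Hoxa13 at 0.0530 and 1.14 CPM.

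In cluster D all 5 genes from Hoxd9 to Hoxd13 were higher in WT MEF 2, by 4.01-fold for Hoxd13 to 20.3-fold for Hoxd11 with 0.1 CPM added to both values. Hoxd11 was at 0.212 CPM in WT MEF 1 and 6.23 CPM in WT MEF 2, and the other 8 libraries lay between 1.12 and 4.43 CPM. Hoxd10 was at 0.743 and 6.99 CPM, and Hoxd13, which patterns the digits and the genital tubercle, at 2.07 and 8.59 CPM. Of the 33 genes, 14 in WT MEF 1 lay below all 8 dCas9a-SAM KI/+ libraries and 5 above them, against 15.8% and 12.8% of the 13392 genes of the table with such a mean. For WT MEF 2, 16 lay below and 6 above, against 28% and 41.2%. Over all 39 Hox genes posterior genes made up 13 of the 18 that were low in WT MEF 1, and central genes and Hoxa3, Hoxb3, Hoxb9 and Hoxc9 made up the 16 that were low in WT MEF 2.

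**Figure D3:**
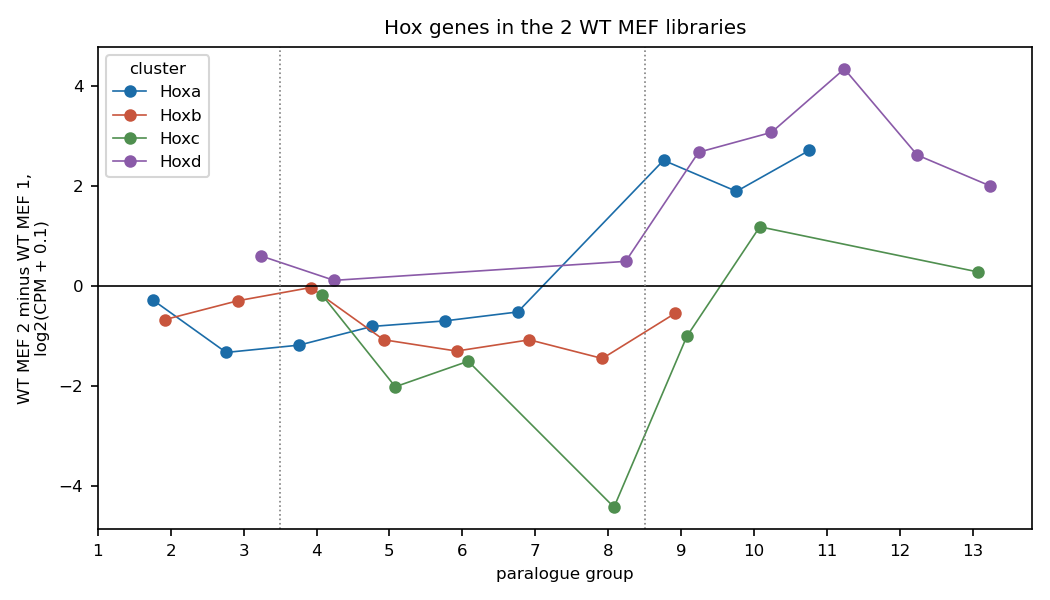
Difference WT MEF 2 minus WT MEF 1 in log2(CPM + 0.1) for 32 Hox genes with a MEF mean of at least 1 CPM (vertical axis) against its paralogue group (horizontal axis), with clusters by colour and dotted lines between anterior, central and posterior groups. Central genes of clusters A, B and C lie below 0, down to -4.42 for Hoxc8, and posterior genes of clusters A and D above it, up to 4.34 for Hoxd11.

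Other transcription factors that mark body regions also differed between the 2 WT libraries. Among limb factors, Tbx4 and Pitx1, which mark the hindlimb, were at 1.64 and 1.38 CPM in WT MEF 1 and at 11.8 and 14.2 CPM in WT MEF 2. En1, known from limb ectoderm and dermomyotome, was at 32.2 and 8.09 CPM, and Lhx9 at 31.7 and 4.98 CPM. Among trunk and visceral factors, the cardiac gene Nkx2-5 was listed at 0 in WT MEF 1 and at 5.51 CPM in WT MEF 2, and Gata4 at 0.583 and 13.2 CPM. Tbx15, the most abundant factor of that list, went the other way, at 121.8 and 51.9 CPM, as did Emx2, at 19.2 and 13.4 CPM. The sum of the list was 168 and 171 CPM. Beside the fibroblast, macrophage and muscle sums given above, the sum of 4 epithelial markers was 1.33 CPM in WT MEF 1 and 62.5 CPM in WT MEF 2, and that of 4 endothelial markers 9.87 and 50.3 CPM. Of the neural and neural crest markers, Sox10 was at 1.49 and 37.8 CPM, Sox2 at 0.530 and 10.2 CPM and Tubb3, which went the other way, at 45.3 and 16.3 CPM. The part of other cell types in the Hox differences was not tested.

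The promoters of posterior cluster D genes are shown because these genes were low together in WT MEF 1, and because Hoxd10, Hoxd11 and Hoxd13 also differed between MEFs with sgNT and without an sgRNA. Windows of 250 bases before to 50 after the start site were taken from RefSeq on GRCm38.p6 and were available for 22 of the 39 genes, as 24 windows. All 6 windows of the genes from Hoxd9 to Hoxd13 lie on the plus strand, Hoxd13 at chr2:74667975-74668274, Hoxd12 at chr2:74674763-74675062, Hoxd11 at chr2:74679308-74679607 (a) and chr2:74682073-74682372 (b), Hoxd10 at chr2:74691641-74691940 and Hoxd9 at chr2:74697513-74697812. Capitals mark matches on either strand to CACGTG (the E-box bound by Myc-Max and other bHLH factors) or to TGATTNAT (the composite element of Hox and Pbx proteins).
Hoxd13: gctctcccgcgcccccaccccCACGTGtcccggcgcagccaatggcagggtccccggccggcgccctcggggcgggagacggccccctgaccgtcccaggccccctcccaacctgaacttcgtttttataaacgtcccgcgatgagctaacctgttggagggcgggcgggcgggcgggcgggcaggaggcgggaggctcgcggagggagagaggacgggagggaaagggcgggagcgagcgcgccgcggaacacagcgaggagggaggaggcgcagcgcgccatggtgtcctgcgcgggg
Hoxd12: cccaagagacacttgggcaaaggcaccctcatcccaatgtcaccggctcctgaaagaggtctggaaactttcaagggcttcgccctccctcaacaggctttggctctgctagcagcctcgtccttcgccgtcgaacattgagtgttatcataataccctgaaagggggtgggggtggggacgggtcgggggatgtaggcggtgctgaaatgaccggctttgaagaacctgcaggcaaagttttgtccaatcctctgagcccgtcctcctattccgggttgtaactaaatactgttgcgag
Hoxd11 (a): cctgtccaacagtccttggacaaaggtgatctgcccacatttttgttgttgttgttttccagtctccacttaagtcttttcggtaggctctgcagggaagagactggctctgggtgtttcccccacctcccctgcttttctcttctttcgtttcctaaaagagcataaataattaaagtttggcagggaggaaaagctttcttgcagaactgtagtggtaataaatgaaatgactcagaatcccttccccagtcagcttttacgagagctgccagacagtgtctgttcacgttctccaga
Hoxd11 (b): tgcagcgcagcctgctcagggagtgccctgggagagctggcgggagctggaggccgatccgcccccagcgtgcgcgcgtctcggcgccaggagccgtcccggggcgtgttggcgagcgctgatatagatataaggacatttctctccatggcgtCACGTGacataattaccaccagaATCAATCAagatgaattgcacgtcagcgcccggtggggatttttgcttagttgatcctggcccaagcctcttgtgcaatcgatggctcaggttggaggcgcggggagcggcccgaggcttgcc
Hoxd10: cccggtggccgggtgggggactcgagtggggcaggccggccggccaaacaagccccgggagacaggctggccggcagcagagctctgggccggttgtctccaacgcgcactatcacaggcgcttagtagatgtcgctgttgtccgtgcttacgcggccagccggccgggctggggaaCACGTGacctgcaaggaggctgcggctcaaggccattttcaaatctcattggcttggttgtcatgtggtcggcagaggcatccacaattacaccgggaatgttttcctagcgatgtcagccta
Hoxd9: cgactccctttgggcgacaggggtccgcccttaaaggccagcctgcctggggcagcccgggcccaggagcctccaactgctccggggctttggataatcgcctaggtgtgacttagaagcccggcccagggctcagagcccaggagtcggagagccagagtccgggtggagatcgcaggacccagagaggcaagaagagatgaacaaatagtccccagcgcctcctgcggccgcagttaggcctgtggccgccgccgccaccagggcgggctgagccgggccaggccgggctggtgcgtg

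CACGTG was found in 5 of the 24 Hox windows (20.8%), those of Hoxd1, Hoxd4, Hoxd10, Hoxd13 and window b of Hoxd11, against 7.15% of all 32851 promoter windows of the same length. TGATTNAT was found in 2 (8.33%), Hoxa2 and the same Hoxd11 window, against 3.22% of all. ATGCAAAT, the octamer bound by Oct1 and Oct2 in B cells, was found in 0 of 24 against 1.74% of all. The windows of Hoxd9 and Hoxd12 and window a of Hoxd11 held none of the 3. The Hox windows had a median of 14.5 CpG dinucleotides (range 4 to 45) against 7 over all windows, and a median GC content of 57.67% against 52.67%. A match here describes the letters of these windows only.

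To ask whether the CRISPRa system by itself alters expression, WT MEFs were compared with dCas9a-SAM KI/+ MEFs carrying sgNT, and 0 of 35 Hox genes tested passed an adjusted p of 0.05 in limma (Benjamini-Hochberg over all genes). The background was 0% (0 of 14560 genes), and 1 Hox gene and 589 genes had an unadjusted p under 0.05. limma-voom, edgeR and DESeq2 likewise called 0 Hox genes. The median Hox difference, sgNT minus WT, was 0.55 on the log2 scale against 0.02 over all genes tested. The smallest p belonged to Hoxa6, at 4.29 and 5.21 CPM with sgNT and 1.91 and 1.14 CPM in WT. The groups did not overlap for Hoxa6, with a log2 difference of 1.62 (SE 0.463, adjusted p = 0.800).

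The count depended on which WT library was kept. With WT MEF 2 as the only WT library, 22 Hox genes were called in limma (background 53.4%), of which 18 were higher with sgNT, among them Hoxc6, Hoxc8 and Hoxb9, and 4 lower (Hoxc11, Hoxd9, Hoxd10 and Hoxd11). With WT MEF 1 as the only one, 11 were called (background 11.2%), of which 10 were higher with sgNT, among them Hoxa9, Hoxa11, Hoxd11 and Hoxd13, and Hoxc8 was lower. Hoxc11, Hoxd10 and Hoxd11 were therefore called lower with sgNT against WT MEF 2 and higher against WT MEF 1, and Hoxc8 the reverse.

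MEFs without an sgRNA were compared with the same WT libraries, so this comparison shares its controls with the one before. Again 0 of 36 Hox genes were called in limma (background 0%, 0 of 14546), with 7 Hox genes and 1081 genes at an unadjusted p under 0.05, and the other count tools called 0. Hoxa6 had the smallest p, at 7.54 and 5.33 CPM without an sgRNA, with a log2 difference of 2.06 from WT (adjusted p = 0.642). The median Hox difference was 0.72 against 0.00 over all genes. With all 10 MEF libraries in 1 fit 5 Hox genes were called (background 4.73%). Keeping 1 WT library gave 24 calls against WT MEF 2 (background 55.1%) and 27 against WT MEF 1 (background 31.8%).

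The non-targeting sgRNA libraries differed from those without an sgRNA at 15 of 36 Hox genes in limma, with 6 higher and 9 lower, against a background of 41.1% (6029 of 14655 genes), 20.3% higher and 20.9% lower. The share of Hox genes called, 15 of 36, was close to that background. Hoxb4, Hoxc5, Hoxc6, Hoxc8, Hoxc13 and Hoxd8 were called higher with sgNT, and among those called lower were Hoxa3, Hoxa5, Hoxb8, Hoxb9, Hoxc12, Hoxd10, Hoxd11 and Hoxd13. With all 10 MEF libraries in 1 limma fit, which takes in the spread of the WT libraries, 1 Hox gene was called (Hoxb9, adjusted p = 0.0478; background 5.94%), and the adjusted p was 0.374 for Hoxc6, 0.229 for Hoxa5 and 0.454 for Hoxd11. The median over the tested Hox genes was -0.21 on the log2 scale against 0.00 over all genes.

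Among the genes lower with sgNT, Hoxb9 was at 72.2 and 80.6 CPM against 141 and 137 CPM without an sgRNA. Its log2 difference was -0.88 (SE 0.0841, adjusted p = 0.000222), and the groups did not overlap. Hoxa5, which patterns the lung and the cervical spine, was at 38.1 and 32.3 CPM against 53.4 and 56.3 CPM, a log2 difference of -0.66 (adjusted p = 0.000891). Its cluster neighbour Hoxa3 was also lower (-0.69, adjusted p = 0.00266). Hoxb8 fell by 0.26 (adjusted p = 0.0403).

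Posterior genes of cluster D, and Hoxc12 alone in cluster C, were also among those lower with sgNT, whereas posterior Hoxc13 was higher. Hoxd13 was at 4.78 and 8.52 CPM against 13.8 and 15.7 CPM, a log2 difference of -1.21 (SE 0.260, adjusted p = 0.00823). Hoxd11 was at 1.12 and 1.66 CPM against 3.62 and 4.43 CPM (-1.50, adjusted p = 0.0035), and Hoxd10 at 2.97 and 3.31 CPM against 5.17 and 6.06 CPM (-0.83, adjusted p = 0.0098). In none of the 3 did the groups overlap, but the share of all genes without overlap was not counted in this comparison. Hoxc12 lay close to the limit of detection, at 0.0975 and 0.0828 CPM against 0.646 and 0.989 CPM (-2.26, adjusted p = 0.00452).

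Among the genes higher with sgNT, Hoxc6 was at 67.6 CPM in both libraries against 39.5 and 43.5 CPM, a log2 difference of 0.69 (SE 0.0795, adjusted p = 0.000492). Hoxc8 was at 63.0 and 60.7 CPM against 43.0 and 39.4 CPM (0.57, adjusted p = 0.000851). Hoxc13, a gene of hair and nail differentiation, was at 5.65 and 5.67 CPM against 2.84 and 2.97 CPM (0.92, adjusted p = 0.00434). Hoxd8 (0.82, adjusted p = 0.0226), Hoxb4 (0.36, adjusted p = 0.0161) and Hoxc5 (0.30, adjusted p = 0.044) completed the group. Without the library labelled no sgRNA MEF 2, which went against its line number, 9 genes were called (background 27.5%): Hoxc6, Hoxc8, Hoxc13 and Hoxd8 higher, and Hoxa3, Hoxa5, Hoxb9, Hoxd11 and Hoxd13 lower.

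Regional factors and cell type markers were read in the same comparison, in which 41.1% of all genes were called. Of 17 trunk and visceral factors tested 4 were higher with sgNT and 8 lower, among them Gata4 (-4.45) and Wt1, a gene of mesothelium and kidney. Of 13 limb factors 5 were higher (Shox2, En1, Tbx5, Lmx1b and Hand2) and 3 lower (Msx2, Lhx2 and Tbx3), and of 11 head factors 5 were higher and 3 lower. Of 11 genes of the retinoic acid pathway, which acts upstream of Hox genes in embryos, 3 were higher and 8 lower, with the synthetic enzyme Aldh1a1 at -1.97. Of 23 chromatin regulators of Hox clusters 3 were higher and 8 lower, among them Dot1l (-1.05) and Ezh2 (-1.04), the methyltransferase of Polycomb complex 2. Of 12 fibroblast markers 10 were higher with sgNT and Fn1 was lower, and the cartilage collagen Col2a1 was at 88.1 and 118 CPM against 713 and 538 CPM. Acan, another cartilage marker, was lower too, whereas Sox9 was higher, at 47.9 and 45.6 CPM against 30.0 and 26.0 CPM. All 3 neural and neural crest markers tested were lower, with Sox10 at 1.22 and 0.662 CPM against 39.5 and 48.3 CPM and Sox2 at 0.390 and 0.248 CPM against 11.4 and 12.5 CPM. The epithelial keratins Krt8 (-4.96) and Krt18 (-3.44) were lower as well. The part of such cells in the Hox differences was not tested.

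With sgBcl-2 compared with sgNT, 5 of 35 Hox genes were called in limma, 2 higher and 3 lower, against a background of 10.8% (1592 of 14676 genes), 6.61% higher and 4.24% lower. Hoxc13 was at 1.37 to 2.25 CPM in the 4 sgBcl-2 libraries and at 5.65 and 5.67 CPM with sgNT, a log2 difference of -1.50 (SE 0.209, adjusted p = 0.00611). Hoxc6 was at 46.0 to 51.3 CPM against 67.6 CPM in both sgNT libraries (-0.39, adjusted p = 0.0127), and Hoxb4 at 15.1 to 19.0 CPM against 27.8 and 24.4 CPM (-0.53, adjusted p = 0.0268). These 3 genes did not overlap between the groups, but the share of all genes without overlap was not counted here.

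The 2 genes higher with sgBcl-2 were Hoxa11, at 10.2 to 15.0 CPM against 6.14 and 7.94 CPM (0.84, SE 0.181, adjusted p = 0.0248), and Hoxb9, at 87.3 to 101 CPM against 72.2 and 80.6 CPM (0.36, adjusted p = 0.044). Neither overlapped between the groups, with the same limit. Leaving out either sgNT library left 0 Hox genes called (background 1.04% without sgNT MEF 1 and 1.32% without sgNT MEF 2). The median Hox difference was -0.25 against -0.01 over all genes, which without a scaling factor were at -0.10. With all 10 MEF libraries in 1 limma fit, Hoxc13 alone was called among the Hox genes (adjusted p = 0.0316, background 0.422%). The sgNT libraries served in this comparison and in the one before.

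Of the other lists, 4 retinoic acid genes were higher with sgBcl-2 (Crabp1, Rara, Crabp2 and Rarg) and 3 lower (Aldh1a1, Rarb and Cyp26b1) of 11 tested. Of 23 chromatin regulators Men1 and Suz12 were higher. Dlx2 of 10 head factors, Msx2 of 13 limb factors, and Meox1 and Meox2 of 15 trunk factors were lower, beside the 10.8% called among all genes. Among cell type markers Dcn (1.33), Fbn1, Ly6a, Cd34 and Krt8 (1.95) were higher with sgBcl-2, and Col2a1 (-0.96) and Lyz2 (-1.03) lower, and their part in the Hox differences was not tested. None of the 9 TALE cofactors was called in limma.

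MEF line 2 was compared with line 1 across the 8 dCas9a-SAM KI/+ libraries with the sgRNA group as a covariate, and 0 of 35 Hox genes were called in limma (background 0.00697%, 1 of 14339 genes). At an unadjusted p under 0.05 there were 10 Hox genes and 669 genes, and limma-voom, edgeR and DESeq2 called 0 Hox genes. Hoxc10, a gene of the lumbar trunk and hindlimb, had the smallest p. It was at 12.3, 14.5, 12.1 and 11.6 CPM in line 1 and 13.3, 18.5, 15.5 and 17.8 CPM in line 2, which overlap, and its log2 difference was 0.38 (SE 0.0973, adjusted p = 0.935). With sgNT and sgBcl-2 libraries alone, where Xist matches the line numbers, 0 were called as well. The hindlimb factor Tbx4 was not called between the lines in limma (adjusted p = 0.935). It was at 11.8 and 9.82 CPM in line 2 and 3.54 and 2.86 CPM in line 1 with sgBcl-2, at 4.14 and 2.83 CPM with sgNT, and at 2.28 and 3.06 CPM without an sgRNA, where line 1 was the higher.

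In the lymphoma lines Hox expression was low and differed from line to line. The summed level was 0.569 to 22.3 CPM per kb, against 171 to 324 in the MEF libraries. The leading genes were Hoxc4 at 3.61 ± 3.85 CPM per kb (SD, n = 6), Hoxb9 at 1.70 ± 1.62 and Hoxb4 at 1.03 ± 0.92, and none of the 3 differed from the next beyond its spread.

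Hoxc4, the 3' end gene of cluster C, which is known from activated B cells, was at 4.70 CPM in line 14_179_IgMp, 17.9 in 15_180_IgMp, 0 in 16_202_IgMp, 0.199 in 17_213_IgMp, 8.59 in 18_214_IgMn and 24.3 in 19_216_IgMn. It was thus high in 4 lines and near 0 in the other two. In 16_202_IgMp, with a count of 0, the limit of 3 reads is 0.114 CPM. The exact Poisson interval for counting error reached 0.140 CPM there and was 16.3 to 19.6 CPM in 15_180_IgMp. Neighbouring Hoxc5 had no read in any of the 6 lines, and Hoxc6 reached at most 0.388 CPM. The promoter window of Hoxc4 at chr15:103034145-103034444, on the plus strand of GRCm38.p6 (RefSeq), holds 9 CpG dinucleotides and none of the 3 motifs, and is shown because Hoxc4 led the lymphoma lines.
Hoxc4: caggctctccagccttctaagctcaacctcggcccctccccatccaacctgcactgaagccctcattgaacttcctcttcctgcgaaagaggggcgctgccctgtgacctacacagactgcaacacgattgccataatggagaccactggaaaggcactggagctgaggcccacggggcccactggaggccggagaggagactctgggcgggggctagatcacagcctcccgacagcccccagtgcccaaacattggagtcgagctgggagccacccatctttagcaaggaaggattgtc

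Cluster B genes were read in most lines but in different combinations. Hoxb4, which expands haematopoietic stem cells when overexpressed, was at 5.19, 0.937, 5.91, 0.249, 1.21 and 2.28 CPM in lines 14_179_IgMp, 15_180_IgMp, 16_202_IgMp, 17_213_IgMp, 18_214_IgMn and 19_216_IgMn. Hoxb9 was at 2.35, 0.0750, 7.92, 0.0996, 5.74 and 10.0 CPM in the same order. Line 16_202_IgMp alone expressed a block of cluster B, with Hoxb3 at 8.68, Hoxb5 at 7.54, Hoxb6 at 10.5 and Hoxb7 at 5.08 CPM. The other 5 lines had at most 1.18 CPM of Hoxb3, 0.313 of Hoxb5, 0.487 of Hoxb6 and 0.0862 of Hoxb7. In 16_202_IgMp the block ended on both sides, with Hoxb8 at 0.644 CPM and Hoxb2 at 0.0379 CPM, although Hoxb9 beyond it was at 7.92 CPM.

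Cluster B supplied 99.3% of the Hox level per kb in line 16_202_IgMp and cluster C 86.1% in line 15_180_IgMp. Line 17_213_IgMp held only 25 Hox reads in all, with no gene at 1 CPM. That line had the limb factor Tbx4 at 17.7 CPM, which was listed at 0 in the other 5. Hoxb13, a posterior gene best known from prostate and tail bud, was at 1.01, 1.01, 1.63, 0, 0.391 and 2.93 CPM. In the MEFs Hoxb13 was at 0.106 to 0.485 CPM. It was absent from the reads of 17_213_IgMp, where the 3-read limit is 0.149 CPM.

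**Figure D4:**
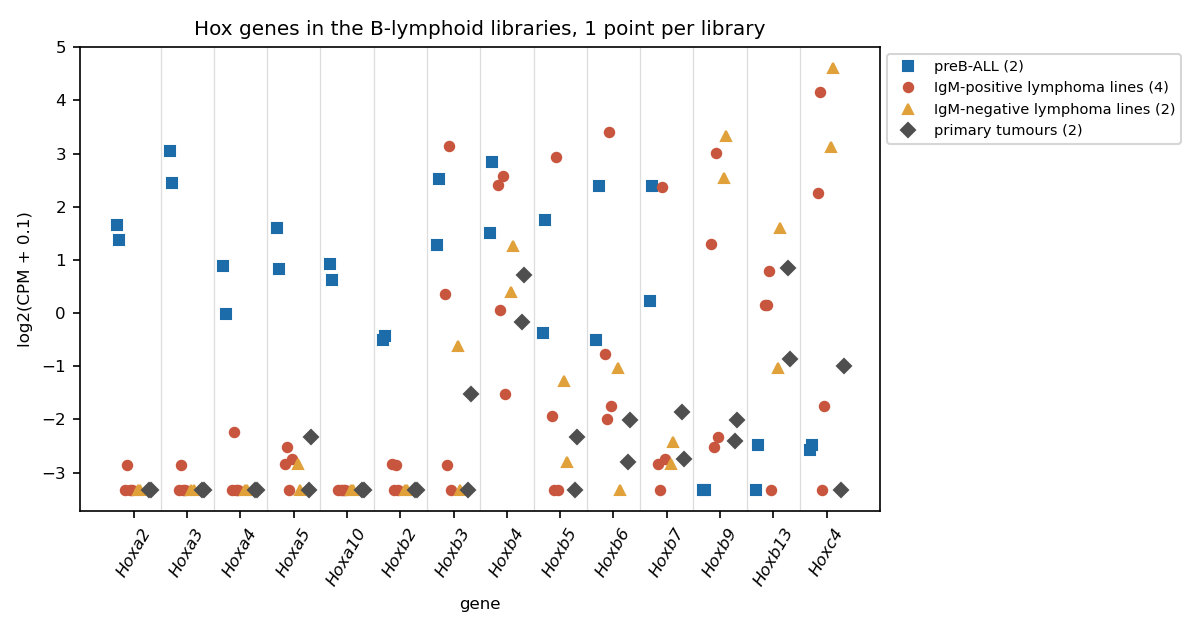
Level of selected Hox genes, log2(CPM + 0.1), with 1 point per lymphoma line, primary tumour or preB-ALL library. Line 16_202_IgMp stands alone in Hoxb5 and Hoxb7, Hoxc4 is high in lines 14_179_IgMp, 15_180_IgMp, 18_214_IgMn and 19_216_IgMn, and the preB-ALL points lie above all lymphoma lines in Hoxa2 to Hoxa5.

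The IgM-negative lines were compared with the IgM-positive lines, and 0 of 6 Hox genes tested were called in limma (background 0.597%). No Hox gene had an unadjusted p under 0.05, against 1397 genes of the table, and limma-voom, edgeR and DESeq2 called 0. Hoxb9 had the smallest p. It was at 5.74 and 10.0 CPM in the IgM-negative lines and at 0.0750 to 7.92 CPM in the IgM-positive lines, so the groups overlapped (log2 difference 3.12, SE 1.68, adjusted p = 0.534).

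The primary tumours were compared with the lines of the same 2 mice, 14_179_IgMp and 15_180_IgMp, and 0 of 3 Hox genes tested were called in limma (background 0.33%, and 1 Hox gene and 3295 genes at an unadjusted p under 0.05). Hoxc4 was at 0 and 0.399 CPM in the tumours and at 4.70 and 17.9 CPM in the lines. The groups did not overlap, with a log2 difference of -5.41 (SE 1.08, adjusted p = 0.0836). limma-voom and edgeR called 0 Hox genes. DESeq2 called Hoxc4 (adjusted p = 0.000277), and over the alternatives run the adjusted p was 0.000277 to 0.474. Blocking on the mouse number gave 0.0234 with the numbers of the titles and 0.262 with those of the descriptions. Hoxb4 was at 0.789 and 1.55 CPM and Hoxb13 at 1.71 and 0.449 CPM in libraries 20 and 21, both overlapping with the lines.

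Hox genes, mostly of cluster A, were lower in the lymphoma lines than in preB-ALL. Of 16 Hox genes tested 7 were called in limma, all lower in the lymphoma lines, against a background of 43.4%, with 22.5% of all genes called lower. Among them were Hoxa2, Hoxa3, Hoxa4, Hoxa5, Hoxa10 and Hoxb2. The called genes had 0 to 5 reads over the 6 lymphoma lines and passed the filter on low values only through preB-ALL. Lower was therefore the only direction open to them. The share of Hox genes called in either direction, 7 of 16, was close to that background. The median over the tested Hox genes was -2.57 on the log2 scale against -0.07 over all genes, which moved to -0.42 without a scaling factor.

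Hoxa3, a gene of the pharyngeal arches and thymus, was at 8.22 CPM in CreER-LSL-Erg and 5.37 CPM in Rag-Cre-Erg. In the lymphoma lines 1 read was counted over all 6. The pooled ratio was 1015 with an exact interval for counting error of 179.97 to 40294, and the fitted log2 difference was -5.73 (SE 0.309, adjusted p = 3.7e-06). Of its exon bases 25.1% are shared with antisense and noncoding genes.

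Hoxa10, an Abd-B-type gene active in early haematopoietic progenitors, was at 1.80 and 1.44 CPM in preB-ALL and had no read in any lymphoma line. Against the limit of 3 reads over the 6 lines it was at least 80.1-fold lower (adjusted p = 7.18e-06). Hoxa2 was at 3.07 and 2.48 CPM against 1 read over the lymphoma lines, with a pooled ratio of 411 (71.7 to 16454). Hoxa5 was at 2.94 and 1.68 CPM against 0 to 0.0750 CPM (-3.87, adjusted p = 6.65e-05). In none of these genes did the groups overlap, which was not counted over all genes in this comparison. DESeq2 did not call Hoxa10 (adjusted p = 0.0544), Hoxa4 (0.0811) or Hoxb2 (0.0564).

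Hoxa4 and Hoxb2 were at lower levels. Hoxa4 was at 1.74 and 0.882 CPM (adjusted p = 0.000345) and Hoxb2 at 0.601 and 0.641 CPM (adjusted p = 0.000181). Their pooled ratios were 65.9 (20.9 to 334) and 45.4 (10.8 to 405). Hoxa9 and Hoxa7, neighbours of Hoxa10, did not pass the filter on low values and were not tested. In preB-ALL they were at 0.0668 and 0.0802 CPM and at 0.267 and 0.240 CPM.

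Several cluster B genes were uneven between the 2 preB-ALL libraries and overlapped with the lymphoma lines, unlike Hoxb2. Hoxb4 was at 2.74 and 7.05 CPM, Hoxb6 at 0.601 and 5.13 CPM and Hoxb7 at 1.07 and 5.13 CPM, each higher in Rag-Cre-Erg. Hoxb9, at up to 10.0 CPM in the lymphoma lines, had no read in either preB-ALL library, where the 3-read limit is 0.200 and 0.240 CPM. No cluster D gene was above 0.0668 CPM.

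Left-out libraries moved this count. Without line 16_202_IgMp, 11 Hox genes were called (background 40.6%), as Hoxb3, Hoxb5 and Hoxb7 joined the lower genes and Hoxc4 was higher in the lymphoma lines. Without CreER-LSL-Erg 4 were called (Hoxa2, Hoxa3, Hoxa5 and Hoxa10; background 35.3%).

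Of the 9 TALE cofactors, Pknox1 was higher in the lymphoma lines (0.89) and 5 were lower, among them Pbx2, Meis1, Meis2 and Pknox2. Of 23 chromatin regulators 6 were higher in the lymphoma lines (Dot1l, Suz12, Psip1, Aff1, Eed and Ctcf) and Cbx8 was lower, a smaller share than the 43.4% called among all genes. The regional factors tested were lower where called, 5 of 5 head factors, 3 of 4 limb factors and 4 of 5 trunk factors, as were 3 of 7 retinoic acid genes.

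Fibroblast markers moved with this comparison too. In preB-ALL 10 of the 12 were at a mean of 1 CPM or more and their sum was 2357 to 5625 CPM, against 5.42 to 59.8 CPM in the lymphoma lines. Neither preB-ALL library had a read of Dcn, and Lum reached at most 0.0668 CPM. The myogenic factors Myod1 (4.81 and 9.38 CPM) and Myog (2.00 and 14.3 CPM) were also present, and the cartilage collagen Col2a1 was at 702 and 375 CPM against at most 0.337 CPM in the lymphoma lines. Of the B lineage markers 7 of 9 were lower in the lymphoma lines, among them the surrogate light chain genes Igll1 (-4.04) and Vpreb1 (-4.57), as were 3 of 4 macrophage markers tested (Lyz2, Csf1r and Cd68). As a percentage of the mean of the 10 MEF libraries, the 12 fibroblast markers had a median of 21.3% in CreER-LSL-Erg and 7.74% in Rag-Cre-Erg. For the 33 Hox genes with a MEF mean of at least 1 CPM the medians were 1.53% and 1.15%.

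Hoxa2 was the highest of these Hox genes, at 74.5% and 60.3% of the MEF mean. Hoxa3 was at 50.1% and 32.8%, and Hoxb4, which was above Hoxa3 in Rag-Cre-Erg only, at 13.7% and 35.4%. By contrast Hoxb9, the leading Hox gene of the MEFs at 93.5 CPM, was at 0%, and Hoxc6 and Hoxc8 were below 0.7% in both libraries. The part of fibroblast RNA in the preB-ALL Hox values was not tested.

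**Figure D5:**
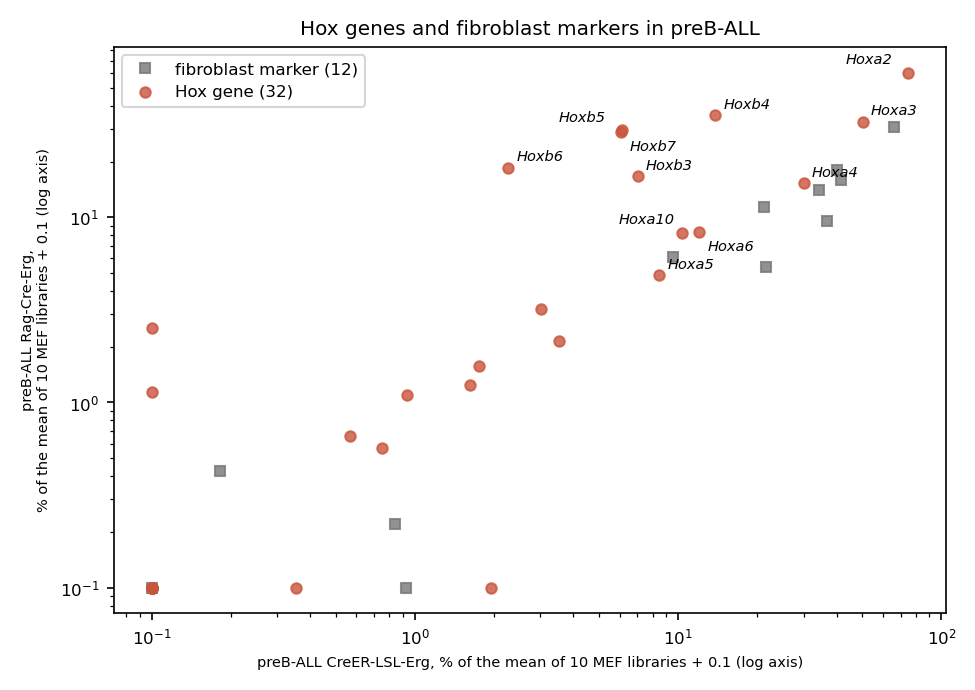
Level of 32 Hox genes and of the fibroblast markers in preB-ALL as a percentage of its mean over the 10 MEF libraries (+ 0.1, log axes), CreER-LSL-Erg on the horizontal and Rag-Cre-Erg on the vertical axis. Fibroblast markers (medians 21.3% and 7.74%) mostly lie above the Hox genes (medians 1.53% and 1.15% over 33 genes), while Hoxa2, Hoxa3 and Hoxb4 lie among them or higher.

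The sgBcl-2 lymphoma lines were compared with the sgBcl-2 MEFs, which carry the same activator. Both carry an sgRNA to the same promoter, but whether its sequence was the same is not stated. In limma 33 of 35 Hox genes were lower in the lymphoma lines. The background was 81.3% called in either direction, and 45% of all genes were called lower. Most Hox genes tested had at most 14 reads over the 6 lymphoma lines and passed the filter on low values only through the MEFs. Lower was therefore the only direction open to these genes. The median Hox difference was -5.79 on the log2 scale, or -6.43 with the 9 genes without a lymphoma read placed at the limit of 3 reads, against -0.27 over all genes. Hoxa10 and Hoxc5 were at least 1018-fold and 693-fold lower, and Hoxb9, at 87.3 to 101 CPM in the MEFs and 0.0750 to 10.0 CPM in the lymphoma lines, was 20.8-fold lower in pooled reads (19.2 to 22.5).

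The adjusted p of the 33 genes was 2.48e-11 to 0.00145 in limma, and none of them overlapped between the groups, as was the case for 75.3% of all genes tested. edgeR called 32, with Hoxb5 lost (adjusted p = 0.0863), and DESeq2 called 29 and gave no adjusted p for Hoxb3, Hoxb5, Hoxb6 and Hoxb7. Against the limit of 3 reads over the 6 lines, the other genes without a lymphoma read were at least 167-fold (Hoxa6), 139.9-fold (Hoxd9), 115-fold (Hoxd11), 90.4-fold (Hoxc13), 86.4-fold (Hoxd3), 32.5-fold (Hoxc11) and 30.5-fold (Hoxd12) lower. In pooled reads Hoxb3 was 17.4-fold lower, Hoxb4 6.28-fold, Hoxb5 6.60-fold, Hoxb6 12.3-fold, Hoxb7 16.5-fold and Hoxb8 241-fold. Line 16_202_IgMp held most of the lymphoma reads of these genes except Hoxb4, for example 134 of 139 for Hoxb7. Over the other 5 lines the pooled fold was 88.6 for Hoxb3, 88.2 for Hoxb5, 102.6 for Hoxb6, 375 for Hoxb7 and 1038 for Hoxb8, and 8.47 for Hoxb4. Among genes with 1 to 14 reads over the 6 lines, the fitted log2 difference was -5.10 for Hoxa2, -7.12 for Hoxa3, -5.48 for Hoxa4, -8.08 for Hoxa5, -6.69 for Hoxa7, -5.91 for Hoxa9 and -6.93 for Hoxa11. It was -7.34 for Hoxb2, -8.51 for Hoxc6, -8.17 for Hoxc8, -6.80 for Hoxc9 and -7.11 for Hoxc10. In cluster D it was -5.12 for Hoxd4, -6.73 for Hoxd8, -5.07 for Hoxd10 and -6.02 for Hoxd13. With so few reads these fitted values depend on the added 0.1 CPM.

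The 2 genes not called were Hoxc4, at 12.3 to 15.6 CPM in the MEFs and 0 to 24.3 CPM in the lymphoma lines (-2.49, adjusted p = 0.143), and Hoxb13, at 0.257 to 0.485 CPM and 0 to 2.93 CPM (0.85, adjusted p = 0.336). Both overlapped between the groups. Without line 17_213_IgMp, Hoxb13 was called higher in the lymphoma lines, beside the 33 lower genes (background 81.1%). All 11 retinoic acid genes, 9 head factors and 12 limb factors tested were lower as well, and so were 11 of 12 trunk factors and 6 of 9 TALE cofactors, with Pknox1 higher. Of 23 chromatin regulators 14 were higher in the lymphoma lines, led by Ezh2, Ctcf and Dot1l, and 4 were lower.

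Other transcripts and genes of the Hox clusters were low in all libraries or read mostly in the MEFs. Of the 12 antisense and noncoding genes listed for the clusters 4 were in the table. Hoxa11os, antisense to Hoxa11, was at 1.11 CPM in WT MEF 1, 9.35 CPM in WT MEF 2 and 2.97 to 6.06 CPM in the other MEF libraries, and had no read in any lymphoid library. It shares 24.8% of the exon bases of Hoxa11, and since strand was not kept, reads on these bases cannot be told apart. Hoxaas3 was at 0.456 to 2.97 CPM in the MEFs, at 0.0802 to 0.219 CPM in the tumours and preB-ALL and at 0.0379 CPM in line 16_202_IgMp. Hotair was at 0 to 0.684 CPM in the MEFs and at 0.0406 CPM in line 14_179_IgMp, and Hoxd3os1 at 0 to 0.195 CPM in the MEFs only. Evx2, beside Hoxd13, was read in all 10 MEF libraries at 0.0530 to 0.345 CPM and in no lymphoid library, and none of the 8 Evx, Cdx and ParaHox genes passed the filter on low values in the comparisons made.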

How the data were processed

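RNA-seq libraries had been prepared with a TruSeq kit that does not keep the strand. Per the study's methods the authors aligned reads to GRCm38 (mm10) with Rsubread and processed them with edgeR and limma, and they deposited CPM (read counts scaled to a library total of 1000000) per Entrez gene. The members and gene lists were chosen with earlier results of these data known. Symbols matched 25242 of the 25869 identifiers. Whole reads were recovered from the CPM within a tolerance of 0.01 read in 100% of values, and any interval or limit of 3 reads covers counting error only.

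Differences were tested with limma 3.58.1 (trend, R 4.3.3) on log2(CPM divided by the TMM factor + 0.1) for genes kept by filterByExpr, with Benjamini-Hochberg adjustment over all genes and a threshold of 0.05, all two-sided. Fold changes on this scale understate those of low genes. limma-voom (the study's method), edgeR 4.0.16 and DESeq2 1.42.0 on the recovered reads, other scalings, filters and pseudocounts, left-out libraries and blocks were alternatives, and the procedure was tested on simulated data. Gene and exon lengths came from GENCODE on GRCm38, and promoters from RefSeq on GRCm38.p6. Figures were drawn with matplotlib 3.10.9 in Python 3.11.15.

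Values of 1 Hox gene and 1 TALE cofactor are not reported here, though counts, medians and summed levels include them. Otherwise values are given for every Hox gene called, or for the gene with the smallest p where none was called. Other genes come from lists of TALE cofactors, noncoding, Evx, Cdx and ParaHox genes, chromatin regulators, the retinoic acid pathway, head, limb and trunk factors and cell type markers. MEF line numbers were taken to pair libraries with sgNT and sgBcl-2 (correlation of deviations from group means 0.33 over 15158 genes, 0.16 without X and Y genes), although the WT lines, which share only a number with them, gave 0.18 and 0.20 with sgBcl-2, so the pairing rests on the labels. They did not do so for the libraries without an sgRNA (-0.05 with sgNT and -0.13 with sgBcl-2), in which Xist and Ddx3y also go against the number.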

Additional observations from a re-analysis of the deposited data

Results flagged for a closer look

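Of 48 pairs of a Hox gene and a group of 4 to 6 libraries, 5 had 1 library far from the rest. Chance picks about 1 in 20 of independent pairs. These pairs share lines and neighbouring genes, so no excess is read from the 5. Hoxb7 was at 5.08 CPM in line 16_202_IgMp, far from the other lines both among the 4 IgM-positive lines and among all 6. Hoxb5 was at 7.54 CPM in line 16_202_IgMp, far from the other 5 lines. Hoxb13 was at 0 CPM in line 17_213_IgMp, below the other 3 IgM-positive lines. Hoxa10 was at 26.6 CPM in library 1 of sgBcl-2 MEF line 2, above the other 3 sgBcl-2 MEF libraries at 18.3 to 19.4 CPM.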

How the results depend on the processing

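For the Hox genes called in a comparison, or the one with the smallest p, 1071 values with an adjusted p were computed under alternative settings. Of these 1002 kept their direction and their side of the threshold, 62 kept the direction but were no longer called, 7 became called and 0 changed direction. Genes outside that choice, such as those called when 1 WT library was kept, are not counted in them. With all 10 MEF libraries in 1 fit, 5 Hox genes were called between no sgRNA and WT MEFs (background 4.73%). The same fit called 1 between sgNT and no sgRNA (background 5.94%) and 1 between sgBcl-2 and sgNT (background 0.422%). An absolute log2 difference of at least 1 left 3 genes for sgNT against no sgRNA and 1 for sgBcl-2 against sgNT, and an adjusted p under 0.01 left 1 in the latter. DESeq2 and the block by title mouse number each called 1 gene between tumours and lines, and the block by description number called 0. A replicate block by MEF line called 0 for both comparisons with WT, 15 for sgNT against no sgRNA and 6 for sgBcl-2 against sgNT. Leaving out 1 library gave 0 to 22 calls for sgNT against WT, 0 to 27 for no sgRNA against WT, 9 to 16 for sgNT against no sgRNA, 0 to 5 for sgBcl-2 against sgNT, 4 to 11 for lymphoma against preB-ALL and 33 to 34 for lymphoma against MEFs. Where 1 library was left in a group, it was assumed to vary like the others. Left-out libraries gave 4 to 8 detected genes in lymphoma lines, 1 in tumours, 9 in preB-ALL, 30 to 35 in WT, 34 without an sgRNA, 33 to 34 with sgNT and 32 with sgBcl-2. A minimum mean of 2 CPM left 3 detected genes in lymphoma lines, 0 in tumours and 7 in preB-ALL, and 1 CPM in every library left 0, 0 and 7. The posterior share without length was 33.6% without an sgRNA, 25.8% with sgNT, 32.2% with sgBcl-2 and 6.25% in preB-ALL. Over groups 10 to 13 it was 9.98%, 8.85% and 11.1% in those MEFs, 12.8% in WT MEFs and 6.12% in lymphoma lines. With coding length, chosen after seeing the data, it was 33.0% without an sgRNA. Left-out libraries gave shares of 16.8% to 42.6% in WT, 29.6% to 29.6% without an sgRNA, 19.7% to 24.8% with sgNT, 27.2% to 29.0% with sgBcl-2, 18.8% to 24.5% in lymphoma lines, 17.5% to 47.1% in tumours and 3.31% to 5.73% in preB-ALL. The causes were not tested. Protein-based coding lengths were not run. With under 30 reads of most Hox genes in the lymphoid libraries, small differences between them were not detectable at this depth.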

Other observations

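Tbx20, a cardiac T-box factor from the list of trunk and visceral factors, was at 11.0 CPM in lymphoma line 14_179_IgMp and at 12.3 CPM in tumour library 21, and it was listed at 0 in the other 5 lines, in tumour library 20 and in both preB-ALL libraries. Library 21 is named 21_179_Tumour_IgMp in its title and 21_180_Tumour_IgMp in its description. In the MEFs Tbx20 was at 12.2 and 15.3 CPM without an sgRNA, 6.38 CPM in WT MEF 2 and 0.257 to 1.80 CPM in the other 7. Tbx20 was chosen after its values were seen.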
